A study of Mus musculus with 12 samples.

Results

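The glutathione transferases and the redox genes linked to the transcription factor NRF2 were followed together across 4 groups of mice. Members were taken by gene symbol. They are the 25 genes with values named Gst plus a class letter and digits or Mgst plus a digit, and 23 named genes of glutathione, thioredoxin, quinone, epoxide and pentose phosphate metabolism with the regulators Nfe2l2, Keap1 and Bach1. These 48 genes are part of the 17738 genes with values in the deposited table, which lists 22899. Of the 48, 45 reached 1 FPKM (mapped fragments, scaled by transcript length and library size) in at least 3 libraries and were tested, among 10764 tested genes in all. Gsto2, Gstt4 and Slc7a11 did not reach it, and Mgst2 reached it only through libraries of mice given colistin.

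Glutathione transferases attach the tripeptide glutathione to reactive compounds, which makes them soluble and ready for export. The soluble enzymes fall into classes named by Greek letters and the microsomal ones sit in membranes. Under resting conditions KEAP1 marks NRF2 (the product of Nfe2l2) for degradation and BACH1 occupies the same DNA elements as a repressor. When reactive compounds modify KEAP1, NRF2 accumulates, pairs with small MAF proteins at antioxidant response elements and raises transcription of genes for glutathione synthesis, quinone reduction, thioredoxin reduction and the supply of NADPH. In liver these transferases are abundant in hepatocytes, and in kidney in the proximal tubule.

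The mice belonged to the Kunming outbred stock, were recorded as female and were 6 to 8 weeks old. No group carries a named allele or transgene. The control group received saline, the 7-HC group 7-hydroxycoumarin (a plant coumarin) at 50 mg/kg/day, the colistin group the polymyxin antibiotic colistin at 15 mg/kg/day, and the colistin + 7-HC group both agents at those doses, for 7 days. 7-HC was dissolved in DMSO, and no DMSO is described for the control and colistin groups, so 7-HC and its vehicle cannot be told apart. Each group has libraries from 3 separate mice, and the study asked how 7-HC changes the injury caused by colistin.

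All 12 libraries are labelled kidney. Per library the values summed to between 517984 and 597354 FPKM, and 10036 to 10392 genes reached 1 FPKM. Most markers of the labelled tissue were near 0. Of 12 proximal tubule markers 10 had values, which summed to 34.8 to 36.3 FPKM in control, 35.2 to 40.3 in 7-HC, 32.0 to 43.3 in colistin and 22.5 to 36.9 in colistin + 7-HC. The control mean was 30.6 FPKM for Aqp1 and 4.59 for Slc13a3, while the median gene of the list stood at 0.027 and Slc34a1 at 0.0067. Miox averaged 0.19 FPKM in control and 10.8 in colistin. Umod, a marker of the loop of Henle, was at 0 in control. The 12 hepatocyte markers summed to 90750 to 101600 FPKM in control, 104000 to 116800 in 7-HC, 48670 to 52300 in colistin and 52620 to 62380 in colistin + 7-HC. Alb was the largest part, with means of 50716 FPKM in control and 20812 in colistin. At an adjusted p under 0.05 in limma, 9 of the 12 were lower in colistin than in control and 1 was higher. Of all tested genes 19.9% were lower and 12.7% higher. Fgb averaged 2764.5 FPKM in control and 12162 in colistin, and Hnf4a 182 and 167. The 10 neutrophil markers summed to 8.55 to 11.8, 8.17 to 11.1, 31.7 to 55.3 and 21.5 to 37.1 FPKM in the same order of groups. By the same test 3 of the 6 tested neutrophil markers were higher in colistin than in control and none lower. S100a8 averaged 0.35 FPKM in control and 13.7 in colistin, and S100a9 0.96 and 18.6. Ly6g averaged 5.04 and 4.24 and Cxcr2 1.32 and 1.51. The 4 Y-linked genes examined summed to 31.2 to 38.8 FPKM in control, although the mice are recorded as female. In every group the hepatocyte markers far exceeded the kidney markers, so these values do not match the label kidney. The tissue is called here by its label only, and the part that these shifts play in any result was not tested.

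Compared to control group, colistin raised several redox genes and lowered as many others, and it lowered many glutathione transferases. Changes are differences of log2(FPKM + 0.5) in log2 units, with the standard error (SE) of the fit. The sulfiredoxin gene Srxn1 rose by 2.36, and Nqo1, Pgd, Txnrd1, Gsr and Gclc also rose. The transferases that fell were 2 of 4 tested Alpha genes, 3 of 7 Mu, 3 of 3 Theta and 1 of 3 microsomal genes. The single tested genes of the Omega, Zeta and Kappa classes fell too. The abundant Gstm1 and Mgst1 were not called. Of the 45 tested members 10 were higher and 19 lower at an adjusted p under 0.05 in limma, that is 29 called against a background of 32.7% of all tested genes (12.7% higher and 19.9% lower). Of 23 tested transferases 3 rose and 12 fell, and of 22 tested redox genes 7 rose and 7 fell. The median log2 fold change was -0.82 for transferases and -0.09 for redox genes, beside -0.07 for all 10764 tested genes. Groups did not overlap in 31 of the 45 members, which is 68.9% beside 46.9% of all tested genes (18.8% higher and 28.1% lower). At the thresholds of the study, a fold change of 2 or more and an adjusted p of 0.001 or less, applied here to limma, 10 members passed, 5 in each direction, beside 5.88% of all genes. In bulk tissue, fewer cells of a type and less RNA per cell cannot be told apart.

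**Figure D1:**
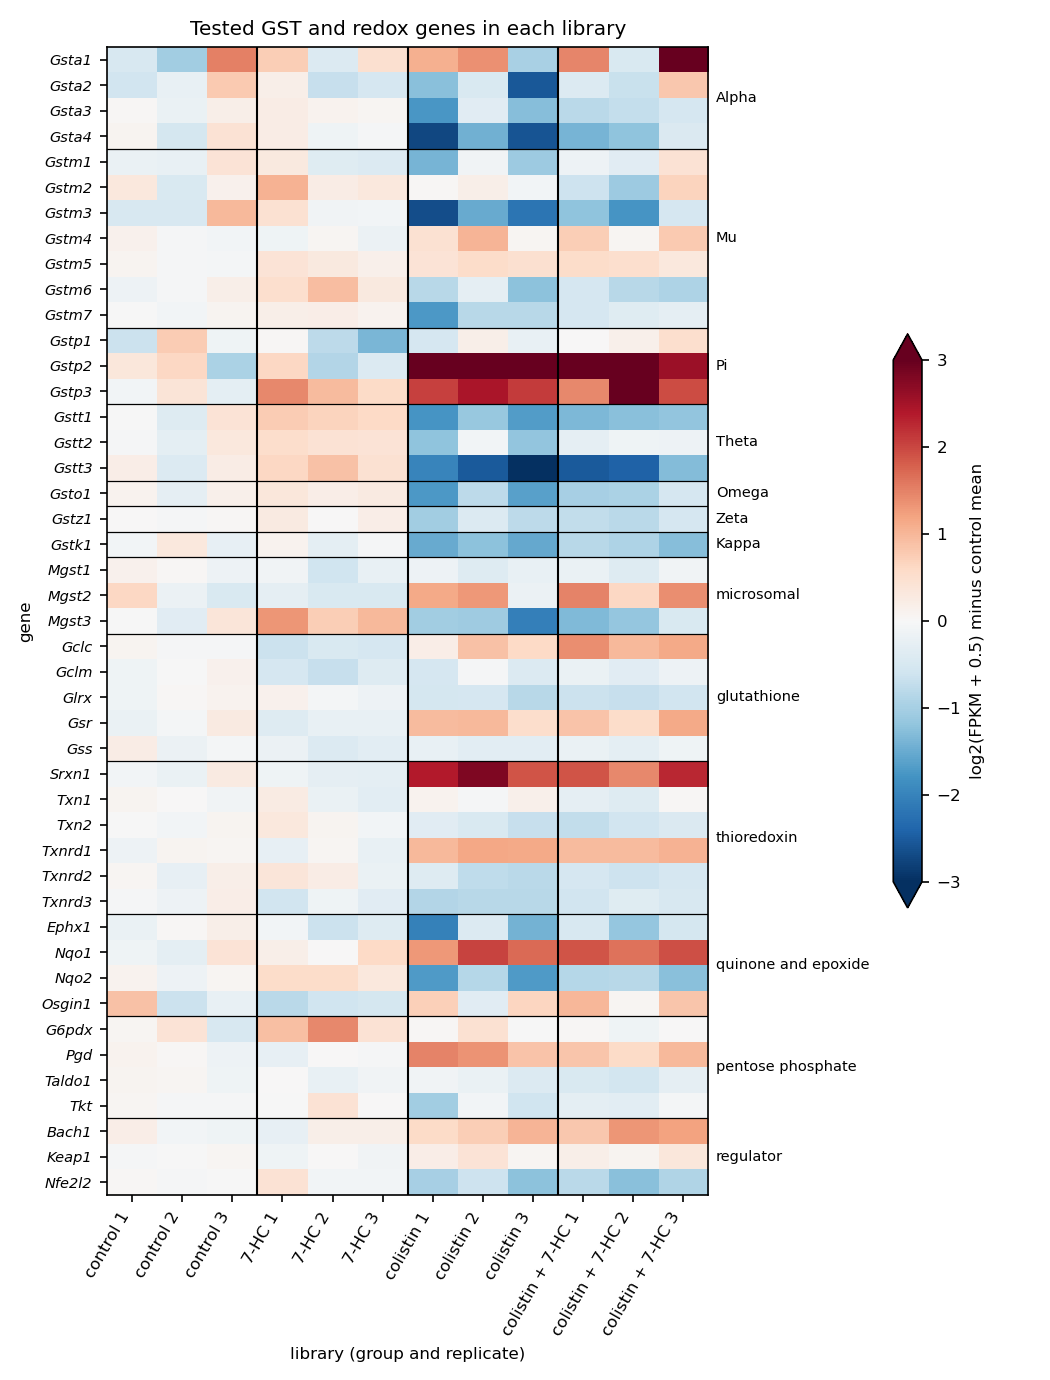
Heat map of the 45 tested members (rows, grouped by class or role) in each of the 12 libraries (columns), coloured by log2(FPKM + 0.5) minus the mean of the 3 control libraries, with colours capped at -3 and 3. In the colistin and colistin + 7-HC columns Gstp2, Gstp3, Srxn1, Nqo1 and Txnrd1 are above control and Gstt1, Gstt3, Gsta4, Gstk1 and Nqo2 are below it.

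The regulators did not move as a block. Nfe2l2, which encodes NRF2, measured 25.6, 24.3 and 24.5 FPKM in control, 33.5, 23.3 and 23.4 in 7-HC, 12.1, 15.96 and 10.3 in colistin, and 13.97, 10.1 and 13 in colistin + 7-HC. Both groups given colistin lay wholly below both groups without it, and the fall in colistin against control was -0.95 log2 (SE 0.19, adjusted p = 0.00263). Keap1, the adaptor that recruits the ubiquitin ligase to NRF2, measured 15.1, 15.5 and 16.2 FPKM in control, 14.3, 15.6 and 14.4 in 7-HC, 18.1, 21.03 and 16.2 in colistin, and 17.6, 16.6 and 19.97 in colistin + 7-HC. All 3 colistin libraries were above all 3 control libraries, but by little, with 0.23 log2 (SE 0.11, adjusted p = 0.15). After scaling by median ratios the same comparison gave 0.31 (adjusted p = 0.0404). Bach1, the repressor of the same elements, measured 7.53, 6.14 and 5.96 FPKM in control, 5.44, 7.43 and 7.37 in 7-HC, 9.87, 11.2 and 13.7 in colistin, and 11.8, 17.01 and 15.6 in colistin + 7-HC. Every library given colistin exceeded every library without it, and the rise was 0.77 log2 (SE 0.17, adjusted p = 0.00601).

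Among 12 other tested genes of NRF2 regulation, 2 rose with colistin and 3 fell, beside 12.7% and 19.9% of all tested genes. The median log2 fold change of the 12 was -0.12. The risers were Sqstm1, an autophagy receptor that binds KEAP1 (1.24), and the related factor Nfe2l1 (0.54). The largest falls were of the small MAF gene Maff (-1.23) and of Park7 (-0.44), and Cul3, the scaffold of the KEAP1 ligase, fell by 0.38.

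The thioredoxin arm held members that moved in opposite directions. Srxn1 encodes sulfiredoxin, which repairs overoxidized peroxiredoxins. It measured 10.04, 9.13 and 12.9 FPKM in control, 9.65, 8.71 and 8.49 in 7-HC, 57.3, 76.9 and 40.5 in colistin, and 40.6, 29.5 and 53.1 in colistin + 7-HC. The 6 libraries given colistin lay above the 6 without it, with 2.36 log2 (SE 0.24, adjusted p = 5.12e-05) in colistin against control. Txnrd1, the cytosolic thioredoxin reductase, measured 22.5, 26.7 and 26.4 FPKM in control, 20.97, 26.4 and 21.6 in 7-HC, 49.7, 56.8 and 55.6 in colistin, and 49.1, 48.9 and 52.5 in colistin + 7-HC. The lowest library given colistin was far above the highest without it and the spread was small, and the change was 1.09 log2 (SE 0.12, adjusted p = 7.07e-05). The mitochondrial reductase Txnrd2 fell (-0.65, adjusted p = 0.012), as did mitochondrial thioredoxin Txn2 (-0.50, adjusted p = 0.0175), the latter not without control replicate 3 (adjusted p = 0.0597) or colistin replicate 3 (0.0713). Txnrd3, a reductase known from testis, measured 2.58, 2.34 and 3.16 FPKM in control, 1.65, 2.40 and 1.99 in 7-HC, 1.24, 1.29 and 1.27 in colistin, and 1.64, 1.98 and 1.76 in colistin + 7-HC. Its colistin libraries were nearly equal and lay below all others, with -0.85 log2 (SE 0.14, adjusted p = 0.000994). Txn1, the cytosolic thioredoxin, was at 0.06 (adjusted p = 0.789) and did not pass the test. Of 21 other genes listed with thioredoxin and glutaredoxin, 2 rose and 3 fell, beside 12.7% and 19.9% of all tested genes. The risers were Sod2 (1.59), a superoxide dismutase rather than a thioredoxin partner, and Selenos (0.62). The largest falls were in Glrx5 (-0.83) and Prdx6 (-0.79), and the median of the 21 was -0.13.

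Quinone and epoxide enzymes also split. Nqo1, a quinone reductase and a classical NRF2 target, measured 2.87, 2.53 and 4.43 FPKM in control, 3.67, 3.20 and 5.06 in 7-HC, 8.58, 14.5 and 11.4 in colistin, and 13.1, 10.9 and 13.5 in colistin + 7-HC. Groups with and without colistin did not overlap, and the rise was 1.67 log2 (SE 0.23, adjusted p = 0.000279). Nqo2, its paralogue, measured 20.7, 17.3 and 20.2 FPKM in control, 28.4, 28.7 and 24.4 in 7-HC, 5.60, 10.5 and 5.65 in colistin, and 10.5, 10.7 and 7.83 in colistin + 7-HC. It moved the other way, again without overlap, with -1.41 log2 (SE 0.21, adjusted p = 0.000534). Ephx1, the microsomal epoxide hydrolase, ranged from 263 to 344 FPKM in control and from 74.5 to 229 in colistin, and fell (-1.28, adjusted p = 0.0144). Without colistin replicate 1 the fall was -0.91 and did not pass (adjusted p = 0.0538). Osgin1, an oxidative stress response gene, spread widely within control, from 51.6 to 149.8 FPKM, and was at 0.34, adjusted p = 0.533 with no call.

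Glutathione synthesis and recycling gave 2 risers and 1 faller among 5 tested genes. Gclc, the catalytic subunit of glutamate-cysteine ligase, measured 106, 96.8 and 97.04 FPKM in control, 63.8, 72.2 and 69.7 in 7-HC, 115, 185 and 152 in colistin, and 264, 197 and 220.0 in colistin + 7-HC. Colistin libraries were above control and colistin + 7-HC libraries above colistin, and the rise in colistin against control was 0.56 log2 (SE 0.17, adjusted p = 0.024). This call was lost without control replicate 2 (adjusted p = 0.0695), control replicate 3 (0.0654), colistin replicate 3 (0.0655) or colistin replicate 2 (0.0683), the last leaving a change of 0.40. Gclm, the modifier subunit of the same enzyme, measured 84.5, 92.8 and 102 FPKM in control, 65.5, 57.5 and 71.3 in 7-HC, 65.3, 90.5 and 70.3 in colistin, and 80.7, 73.8 and 83.3 in colistin + 7-HC. It did not follow Gclc, and at -0.31 (adjusted p = 0.113) it did not pass the test. Gsr, glutathione reductase, measured 14.6, 15.9 and 20.2 FPKM in control, 12.6, 14.3 and 14.3 in 7-HC, 32.5, 33.3 and 24.5 in colistin, and 30.6, 24.6 and 37.2 in colistin + 7-HC. All libraries given colistin lay above all others, with 0.82 log2 (SE 0.18, adjusted p = 0.00468). Glrx, a glutaredoxin, fell (-0.62, adjusted p = 0.00315), and Gss, glutathione synthetase, was at -0.29, adjusted p = 0.0855 without a call. Slc7a11, the cystine importer, was listed at 0 to 0.01 FPKM without colistin, at 1.02, 0.13 and 0.22 in colistin and at 0.17, 0.12 and 0.18 in colistin + 7-HC, and was left out by the filter on low values. The 6 libraries given colistin were all above the 6 without it. Of 19 other tested genes of glutathione turnover 4 rose and 6 fell, beside 12.7% and 19.9% of all tested genes. Gpx3 (1.36) and Gpx4 (0.77) were at the top and Ethe1 (-1.44) and Gpx1 (-1.38) at the bottom, and the median of the 19 was -0.18.

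Of the pentose phosphate enzymes, which supply NADPH, only Pgd passed among the 4 tested. Pgd, 6-phosphogluconate dehydrogenase, measured 14.5, 13.8 and 12.02 FPKM in control, 11.2, 13.4 and 13.1 in 7-HC, 38.6, 34.98 and 24.7 in colistin, and 24.2, 20.1 and 26.9 in colistin + 7-HC. The lowest library given colistin was above the highest without it, and the rise was 1.24 log2 (SE 0.17, adjusted p = 0.000286). G6pdx, the first enzyme of the pathway, stood at 0.16 (adjusted p = 0.681), Taldo1 at -0.24 (adjusted p = 0.163) and Tkt at -0.57 (adjusted p = 0.0545), with no call. Of 13 other tested genes listed under NADPH supply, some of them in the same pathway, 1 rose and 7 fell. Among all tested genes 12.7% rose and 19.9% fell. H6pd rose (0.61), the largest falls were of Mthfd1 (-1.54) and Tkfc (-1.27), and the median of the 13 was -0.47. Tkfc encodes a triokinase, which makes no NADPH, and is counted here only as listed.

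Among 28 other tested NRF2 target genes 11 rose and 3 fell with colistin, beside 12.7% and 19.9% of all tested genes. The median of the 28 was 0.53. Hmox1, heme oxygenase, averaged 15.1 ± 1.29 FPKM in the control group and 179.8 ± 47.4 in the colistin group (mean ± SD, n = 3). Its change was 3.50, and Gdf15 rose by 2.23. The largest falls were of Ces1g (-2.68) and Aldh3a2 (-2.47). The drug receptors CAR and PXR regulate several transferases too. Of their 18 tested targets none rose and 10 fell, beside 12.7% and 19.9% of all tested genes. The median of the 18 was -1.05, beside -1.02 for the 12 hepatocyte markers. The largest falls were of Cyp3a11 (-5.12) and Cyp2c29 (-4.82). Whether these receptors had a part in the changes of the members was not tested.

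**Figure D2:**
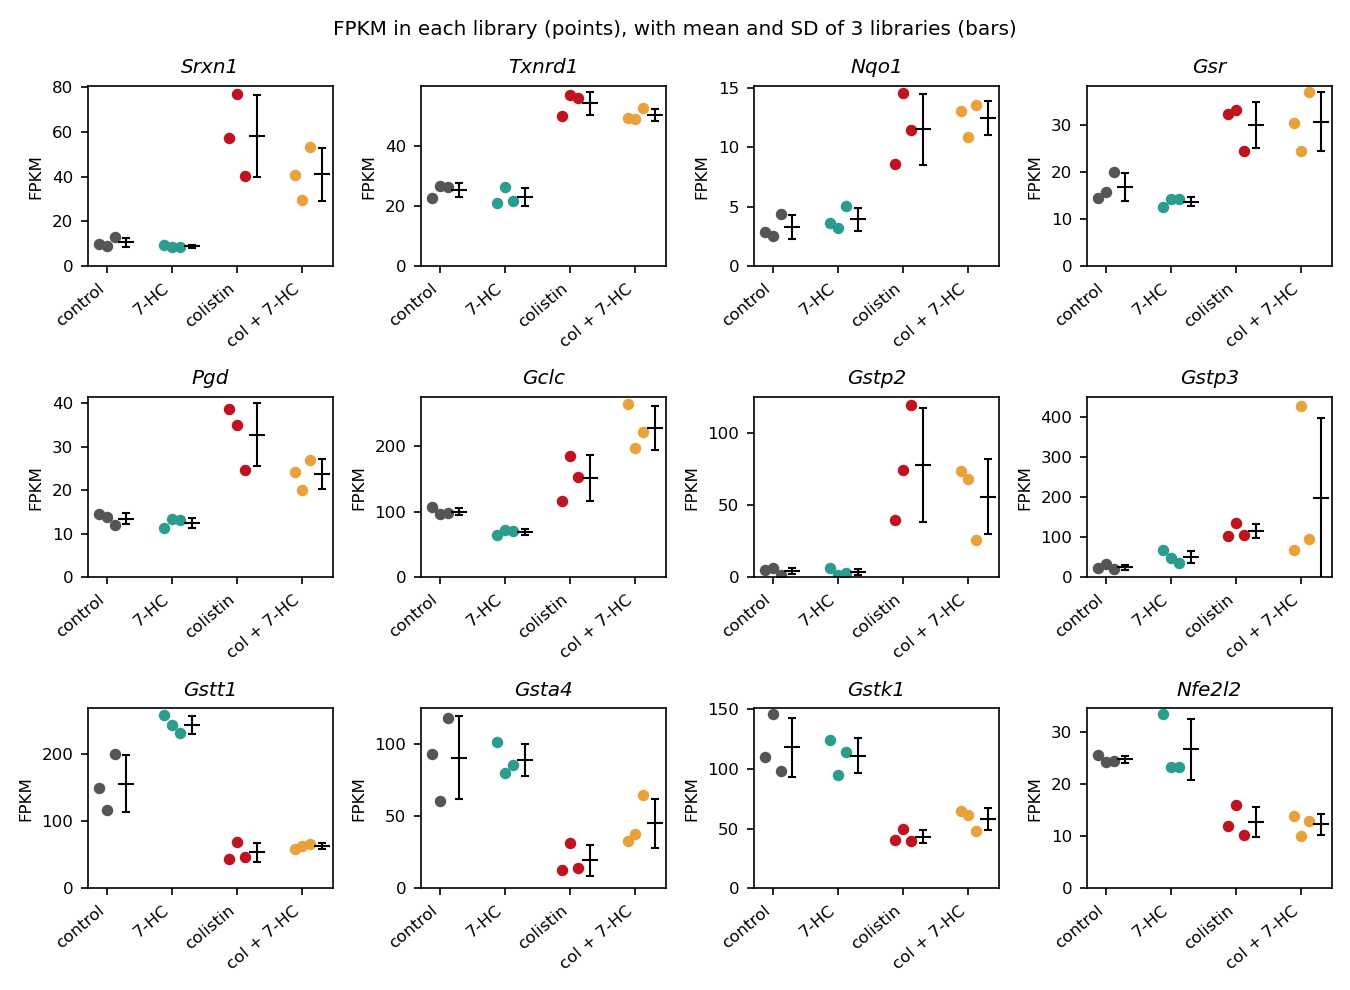
FPKM of 12 members in each library (points, linear axis from 0), with the mean and SD of 3 libraries as black bars beside them, for control, 7-HC, colistin and colistin + 7-HC (col + 7-HC). Srxn1 reached 40.5 to 76.9 in colistin against 9.13 to 12.9 in control, Nfe2l2 10.3 to 15.96 against 24.3 to 25.6, and the wide bar of Gstp3 in colistin + 7-HC, whose lower end falls below the axis, comes from 1 library at 428.

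The core of the antioxidant response element was looked for at the start sites of the members, since Srxn1, Nqo1 and Txnrd1 of this pathway rose together. RefSeq windows (build GRCm38.p6) from 250 bases before to 50 after each start were searched for TGACNNNGC on both strands. Of the 48 members 44 have such windows, 58 in all, and 10 of these windows (17.24%) hold the motif, beside 12.39% of 32851 windows of all genes. Counted per gene, 10 of the 44 members hold the motif, beside 13.99% of 27025 genes with windows. By call in colistin against control it was present for 4 of 8 risers, 3 of 17 fallers and 3 of 16 members with no call that have a window. These numbers are small and were not tested. The 7 members that changed are shown 5′ to 3′ on the strand of the gene, with the motif in capitals, which reads GCNNNGTCA where it lies on the other strand.
Srxn1 (rose), chr2:152105542-152105570: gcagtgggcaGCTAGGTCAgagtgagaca
Txnrd1 (rose), chr10:82859089-82859147: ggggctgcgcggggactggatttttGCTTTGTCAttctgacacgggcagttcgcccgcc
Pgd (rose), chr4:149166061-149166089: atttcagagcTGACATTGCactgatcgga
Gstm5 (rose), chr3:107895787-107895845: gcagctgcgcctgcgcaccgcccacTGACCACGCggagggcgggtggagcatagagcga
Gsta3 (fell), chr1:21240439-21240497: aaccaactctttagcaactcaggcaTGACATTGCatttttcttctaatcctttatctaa
Gstm7 (fell), chr3:107931710-107931768: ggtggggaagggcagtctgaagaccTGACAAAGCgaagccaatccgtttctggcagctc
Nfe2l2 (fell), chr2:75704870-75704913: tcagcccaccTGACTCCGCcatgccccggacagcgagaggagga
The Pgd and Gsta3 windows carry the same 9 letters, and these genes moved in opposite directions. Counted from the start site, the first base of the motif lies at -121 in Gsta3, -129 in Gstm7, -240 in Nfe2l2, -92 in Txnrd1 and -42 in Gstm5, and after the start at 28 in Srxn1 and 3 in Pgd. The Nqo1 window does not hold these letters. A match describes letters in the window and not a bound site.

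The Pi class held the largest rise among the tested members. Gstp1, Gstp2 and Gstp3 lie side by side on chromosome 19 (GRCm38.p6, 4035411 to 4037912, 4040288 to 4042221 and 4057470 to 4059605). Gstp1, the most abundant of them, measured 1179, 3174 and 1711 FPKM in control, 1909.5, 1075 and 712 in 7-HC, 1312, 2107 and 1583 in colistin, and 1859.8, 2068 and 2613 in colistin + 7-HC. Control libraries spread more than the groups differed, and the comparison gave -0.18 log2 (SE 0.39, adjusted p = 0.755). Gstp2 measured 5.21, 6.37 and 1.82 FPKM in control, 6.47, 1.94 and 2.86 in 7-HC, 40.1, 74.8 and 119 in colistin, and 73.7, 68.1 and 26.03 in colistin + 7-HC. The lowest library given colistin, at 26.03, was above the highest without it, at 6.47, with 3.99 log2 (SE 0.56, adjusted p = 0.000337). The coding sequences of Gstp1 and Gstp2 are identical at 98.1% of aligned bases, with an identical run of 300 bases, so the split of reads between them is uncertain. Summed as 1 gene the pair gave -0.12 (adjusted p = 0.842). Gstp3 measured 22.99, 32.3 and 19.9 FPKM in control, 67.6, 47.9 and 36.98 in 7-HC, 104, 136 and 107 in colistin, and 67.3, 428 and 96.8 in colistin + 7-HC. Colistin libraries were above all control and 7-HC libraries, the rise was 2.2 log2 (SE 0.53, adjusted p = 0.00841), and in colistin + 7-HC 1 library stood far above the other two.

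The Theta class had a median change of -1.53, the lowest among the classes with more than 1 tested gene. Gstt1, its most abundant member, measured 149.8, 116 and 200.3 FPKM in control, 257, 242 and 231 in 7-HC, 44.1, 69.1 and 46.9 in colistin, and 58.99, 63.2 and 66.6 in colistin + 7-HC. The order was 7-HC above control above both groups given colistin, with no overlap between these 3 levels, and colistin against control gave -1.53 log2 (SE 0.20, adjusted p = 0.000251). Gstt3 measured 54.2, 35.02 and 54.4 FPKM in control, 72.7, 87.4 and 64.2 in 7-HC, 11.4, 7.78 and 3.51 in colistin, and 7.72, 8.39 and 18.8 in colistin + 7-HC. Every library given colistin was below every one without it, and the fall of -2.69 log2 (SE 0.40, adjusted p = 0.000472) was the largest among the 45 tested members in this comparison. Gstt2 fell as well (-0.82, adjusted p = 0.032), a call that was lost without control replicates 1 or 3 or colistin replicates 1 or 3 (adjusted p up to 0.125), and Gstt4 was listed at 0 in 11 libraries and at 0.08 FPKM in 7-HC replicate 1. The summed FPKM of the class was 195 to 322 in control, 366 to 408 in 7-HC, 73.9 to 128 in colistin and 112 to 134 in colistin + 7-HC.

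In the Alpha class Gsta3 and Gsta4 fell. Gsta3, the most abundant member, measured 674, 573 and 744 FPKM in control, 774, 715 and 688 in 7-HC, 198, 523 and 272 in colistin, and 378, 399.8 and 467 in colistin + 7-HC. Colistin replicate 2 was close to the lowest control library and the other 2 were far below, with -1.12 log2 (SE 0.28, adjusted p = 0.0101). Gsta4, known for conjugating 4-hydroxynonenal from lipid peroxidation, measured 93.3, 60.8 and 118 FPKM in control, 102, 80.4 and 85.4 in 7-HC, 12.8, 31.9 and 14.1 in colistin, and 32.8, 37.9 and 64.8 in colistin + 7-HC. Every colistin library was below every control library, with -2.26 log2 (SE 0.36, adjusted p = 0.000747). Gsta1 and Gsta2, whose coding sequences are 97.6% identical, varied widely inside a group, with Gsta1 at 23.8, 5.98 and 93.7 FPKM in colistin + 7-HC. They were at 0.49 (adjusted p = 0.723) and -1.42 (adjusted p = 0.0648), neither passed, and their sum gave -0.97 (adjusted p = 0.274).

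The 7 tested Mu genes gave 1 riser and 3 fallers. Gstm1, the most abundant, measured 1657, 1626 and 2498 FPKM in control, 2318, 1474 and 1423 in 7-HC, 713, 1768 and 890.0 in colistin, and 1689, 1481 and 2567 in colistin + 7-HC. Colistin replicate 2 lay within the control range and the other 2 colistin libraries below it, and -0.86 log2 (SE 0.35, adjusted p = 0.0768) did not pass. Gstm3 measured 91.6, 91.7 and 249.8 FPKM in control, 175, 119.9 and 121 in 7-HC, 19.7, 44.6 and 27.6 in colistin, and 55.6, 36.9 and 90.8 in colistin + 7-HC. Colistin libraries were all below control, though control replicate 3 was far above the other two, with -2.12 log2 (SE 0.43, adjusted p = 0.00338). Gstm7 measured 33.8, 32.1 and 36.3 FPKM in control, 38.2, 38.9 and 36.8 in 7-HC, 10.02, 18.99 and 18.8 in colistin, and 23.7, 26.1 and 28.2 in colistin + 7-HC. The groups formed 3 levels, colistin lowest, colistin + 7-HC between and the others on top, and colistin against control gave -1.13 log2 (SE 0.20, adjusted p = 0.00147). Gstm6 fell (-0.77, adjusted p = 0.0264), a call lost without control replicates 2 or 3 or colistin replicates 1 or 3 (adjusted p up to 0.103). Gstm5 rose (0.48, adjusted p = 0.00565) from 11.1 to 12.4 FPKM in control to 15.5 to 17.2 in colistin. Gstm2 and Gstm4 were at 0.04 (adjusted p = 0.945) and 0.51 (adjusted p = 0.124), with no call.

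The single tested genes of the Omega, Zeta and Kappa classes all fell. Gsto1, which reduces dehydroascorbate, measured 115, 88.3 and 118 FPKM in control, 134, 122 and 127 in 7-HC, 32.1, 62 and 34.04 in colistin, and 52.9, 54.95 and 74.6 in colistin + 7-HC. The highest colistin library was below the lowest control one, with -1.37 log2 (SE 0.23, adjusted p = 0.00114). Gstz1, the maleylacetoacetate isomerase of tyrosine breakdown, measured 465, 451 and 472 FPKM in control, 554, 463 and 527 in 7-HC, 223, 346 and 269 in colistin, and 276, 265 and 325 in colistin + 7-HC. Control libraries were nearly equal and colistin libraries lay below them, with -0.75 log2 (SE 0.16, adjusted p = 0.00465). Gstk1, an enzyme of mitochondria and peroxisomes, measured 109.7, 145 and 98.2 FPKM in control, 124, 95 and 114 in 7-HC, 40.4, 49.5 and 39.95 in colistin, and 64.9, 61.4 and 47.8 in colistin + 7-HC. Both groups given colistin were far below both without it, with -1.42 log2 (SE 0.18, adjusted p = 0.00017). Gsto2 was listed at 0 to 0.14 FPKM and not tested.

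The microsomal enzymes differed from each other. Mgst1, the most abundant of them, measured 2281, 2141 and 1868 FPKM in control, 1947, 1370.1 and 1777 in 7-HC, 1893, 1608 and 1779 in colistin, and 1818, 1588 and 1950.1 in colistin + 7-HC. Groups overlapped, and -0.25 log2 (SE 0.17, adjusted p = 0.272) did not pass. Mgst3 measured 23.8, 18.7 and 30.9 FPKM in control, 61.1, 40.5 and 47.2 in 7-HC, 11.3, 11.2 and 5.43 in colistin, and 9.34, 10.5 and 17.3 in colistin + 7-HC. Libraries without colistin lay above all with it, and 7-HC above control, and colistin against control gave -1.39 log2 (SE 0.31, adjusted p = 0.00534). Mgst2 ranged from 0 to 1.44 FPKM over the 12 libraries and stood at 0.76, adjusted p = 0.169 without a call.

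**Figure D3:**
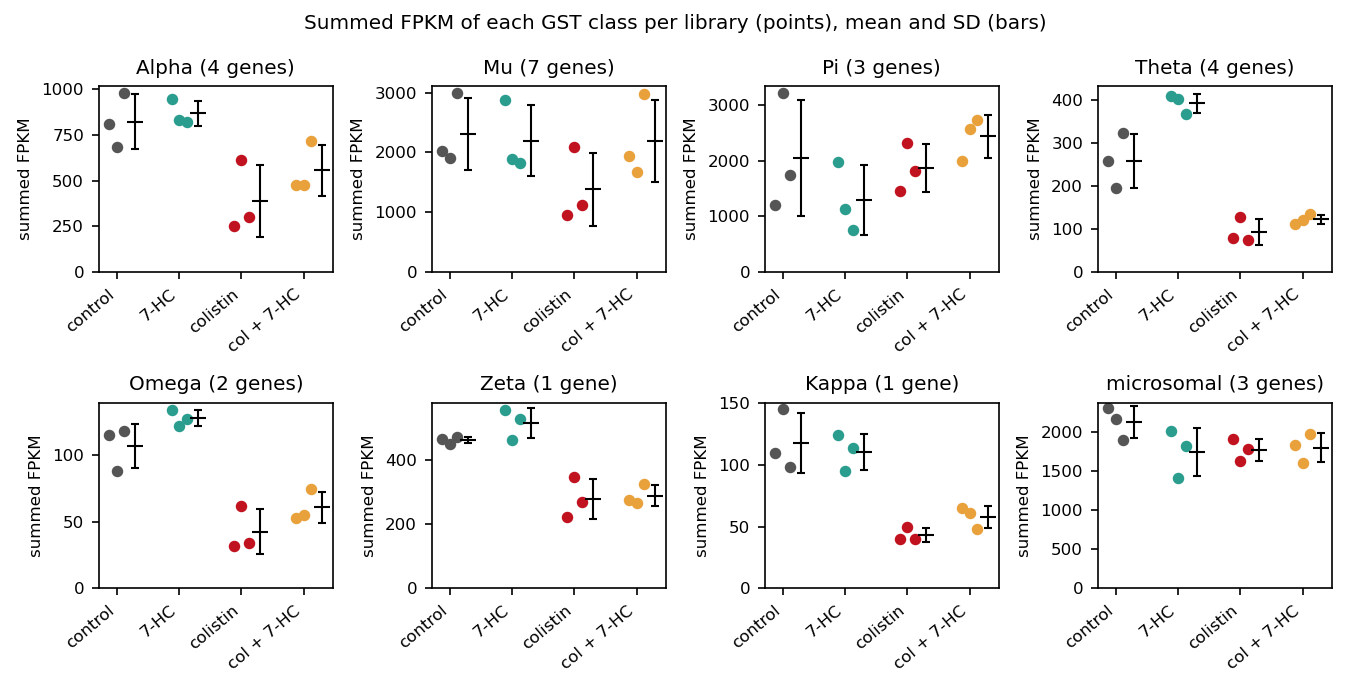
Summed FPKM of each of the 8 glutathione transferase classes in each library (points, axis from 0), with the mean and SD of 3 libraries as black bars, for control, 7-HC, colistin and colistin + 7-HC (col + 7-HC). Alpha, Theta, Omega, Zeta and Kappa sums are lower in colistin than in control in all 3 libraries, while Pi and Mu sums overlap between these groups.

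Over all 25 transferase genes the summed level was 7286 to 8851 FPKM in control, 6341 to 9045 in 7-HC, 4937 to 7225 in colistin and 6754 to 8981 in colistin + 7-HC. The 7-HC group overlapped with each of the others, and 2 of its libraries were below colistin replicate 2. Most markers of hepatocyte position fell as well, 7 of 9 tested pericentral and 8 of 10 tested periportal genes, beside 19.9% of all tested genes. The pericentral list of 10 genes summed to 6519 to 8030 FPKM in control and 821 to 1635 in colistin, and the periportal list of 10 to 6186 to 8172 and 1405 to 4415. Most of the pericentral sum was Cyp2e1 (control mean 6174 FPKM), which is also in the hepatocyte list. The periportal Arg1 averaged 815 FPKM in control and 918 in colistin. The colistin libraries also differed among themselves. Replicate 2 was the highest of the 3 in 15 of the 19 members that fell (78.9%, beside 71.2% of all genes that fell) and in 7 of the 10 that rose (70%, beside 22% of all genes that rose). The part of these shifts in the members' changes was not tested.

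The effect of colistin was also measured on a 7-HC background, in a comparison that sets other libraries against each other than the first. Both take their spread from the 1 fit of all 12 libraries, so the tests are not independent. Of 45 members 11 were higher and 16 lower in colistin + 7-HC than in 7-HC, against a background of 31.1% (14.5% higher and 16.6% lower). One of the 11 is Mgst2, which passed the filter on low values only through libraries given colistin, where it is high. Groups did not overlap in 33 members, Mgst2 again among them (73.3%, beside 46.5% of all tested genes, 22.1% higher and 24.4% lower). At the thresholds of the study 10 members passed, beside 4.59%. In both comparisons 24 members were called, all in the same direction, 9 higher and 15 lower. This is 82.8% of the 29 calls of the first comparison and 88.9% of the 27 of the second, beside 60.9% and 64% for all genes. Srxn1 gave 2.10 log2 (SE 0.24, adjusted p = 0.000134), Txnrd1 1.12 log2 (SE 0.12, adjusted p = 7.48e-05) and Nqo1 1.55 log2 (SE 0.23, adjusted p = 0.000532). Gstt3 gave -2.74 log2 (SE 0.40, adjusted p = 0.000499) and Gstt1 -1.94 log2 (SE 0.20, adjusted p = 6.62e-05). Gclc rose by 1.71 log2 (SE 0.17, adjusted p = 4.37e-05), to levels above those of every other group. Gstp3 passed narrowly (1.51, adjusted p = 0.0499) and did not pass with a pseudocount of 0.1 (adjusted p = 0.0502) or 1 (0.0501), and Gsta3, Gsta4 and Gstm3 passed with adjusted p between 0.0456 and 0.0471. With 1 library left out Gstp3 passed only without colistin + 7-HC replicate 1, Gsta3 only without colistin replicates 1 or 2, and Gsta4 and Gstm3 only without control replicates 2 or 3, colistin replicates 1 or 2 or colistin + 7-HC replicate 3. Their adjusted p reached 0.142, 0.122, 0.152 and 0.173.

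Ephx1, Gstm5, Gstm7, Gstt2 and Txnrd3 were called in the first comparison and not in the second, and G6pdx, Mgst2 and Osgin1 in the second and not in the first. G6pdx measured 2.89, 3.88 and 1.86 FPKM in control, 5.63, 8.43 and 3.90 in 7-HC, 2.83, 4.02 and 2.74 in colistin, and 2.86, 2.48 and 2.79 in colistin + 7-HC. All 3 libraries of 7-HC were above all 3 of control and of colistin + 7-HC, and colistin + 7-HC against 7-HC gave -0.96 log2 (SE 0.26, adjusted p = 0.0181). The call was lost without 7-HC replicate 2 (adjusted p = 0.0689) or colistin + 7-HC replicate 2 (0.0597). Osgin1 gave 1.27, adjusted p = 0.0292, lost without each 7-HC library in turn or without colistin + 7-HC replicates 1 or 3 (adjusted p up to 0.0999), and Mgst2 stood at 1.56, a description only, since it entered the test through libraries given colistin. These differences were tested as the interaction of both agents, in which no member was called.

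**Figure D4:**
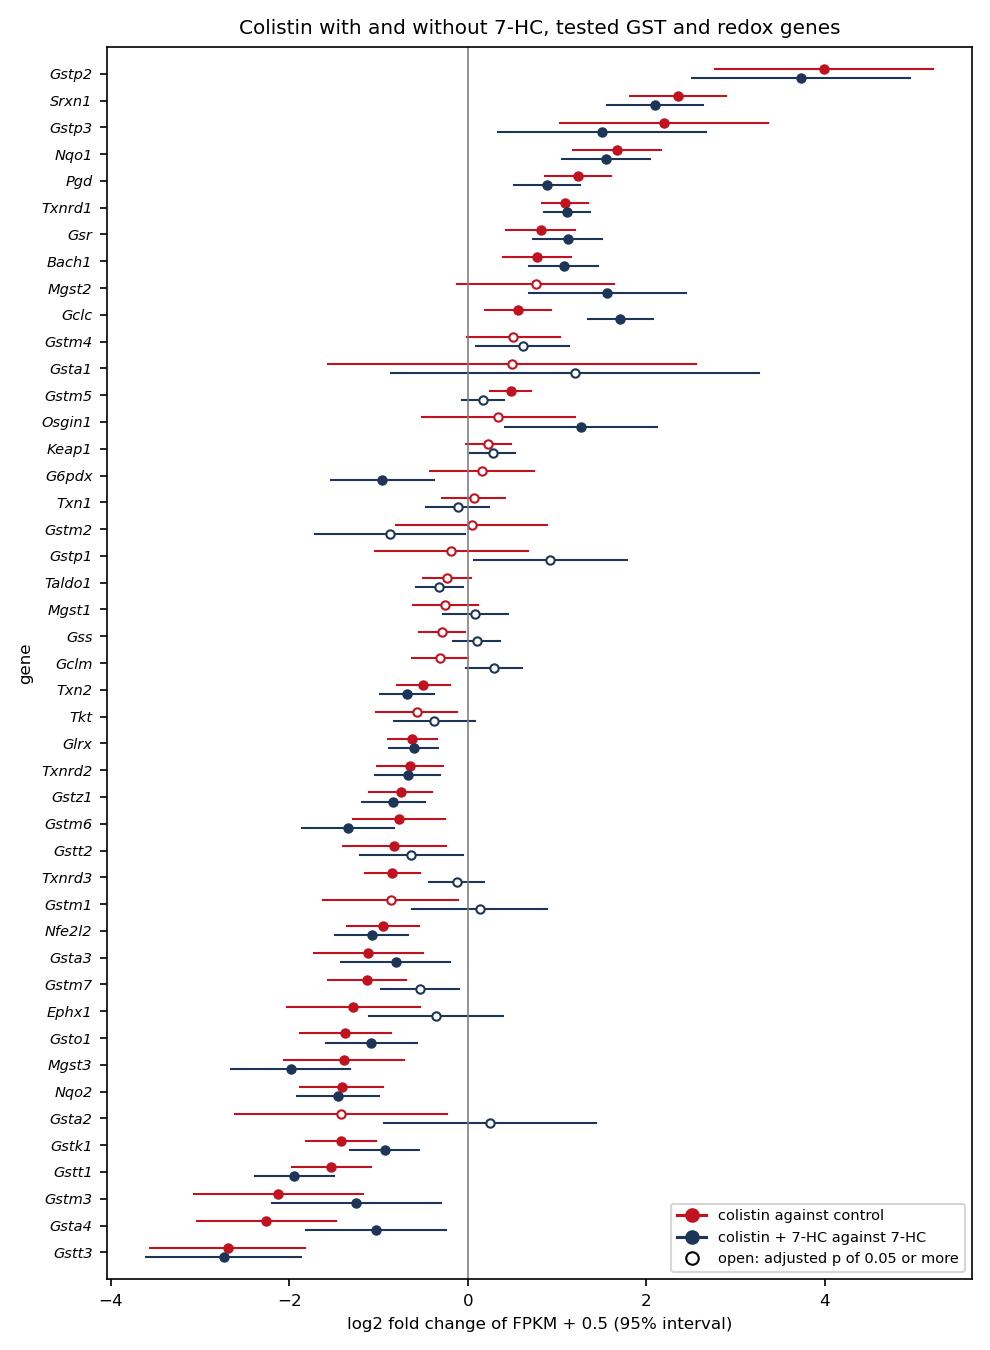
Log2 fold change of FPKM + 0.5 with its 95% interval for each of the 45 tested members, in colistin against control (red) and in colistin + 7-HC against 7-HC (blue), with open points at an adjusted p of 0.05 or more. Gstp2, Srxn1, Nqo1, Pgd, Txnrd1, Gsr and Bach1 lie to the right of 0 in both and Gstt3, Gsta4, Gstm3, Gstt1 and Gstk1 to the left, and Gclc lies at 0.56 and 1.71.

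Set against control, colistin + 7-HC had 10 members higher and 14 lower, beside a background of 26.1% (10.6% higher and 15.6% lower). Groups did not overlap in 31 members, 68.9% beside 48.3% of all genes (19.6% higher and 28.8% lower), and 3 members passed the thresholds of the study, beside 3.47%. The same control libraries serve here and in colistin against control. Srxn1 stood at 1.87 here and 2.36 there, Nqo1 at 1.81 and 1.67, Gclc at 1.17 and 0.56, Gstt3 at -2.08 and -2.69, Gsta4 at -1.01 and -2.26, and Nfe2l2 at -0.99 and -0.95.

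When 7-HC was added to colistin, no member passed the test in limma. The background was 0.00929%, that is 1 of 10764 genes. At an unadjusted p under 0.05 there were 11 members, beside 12.4% of all genes, and groups did not overlap in 4 members (8.89%, beside 16.9%, of which 9.91% higher and 6.99% lower). These 4, Gclc, Gsta4, Gstm7 and Txnrd3, were all higher in colistin + 7-HC. The members with the lowest p were Gstm7 (0.74, 95% interval 0.31 to 1.18, adjusted p = 0.197), Gclc (0.61, 95% interval 0.24 to 0.97, adjusted p = 0.212) and Gsta4 (1.25, 95% interval 0.46 to 2.03, adjusted p = 0.222). Nfe2l2 was at -0.04, Nqo1 at 0.14 and Srxn1 at -0.49, with 95% intervals of -0.45 to 0.37, -0.36 to 0.63 and -1.03 to 0.05. The result turned on 1 library. Without colistin replicate 2, 8 members were higher and none lower, beside a background of 4.37% of all genes (3.01% higher). They were Gsta4 (1.65), Gstm1 (1.22), Gstt2 (1.02), Gstm7 (0.89), Gsto1 (0.85), Gsta3 (0.83), Gclc (0.77) and Nqo2 (0.72), with adjusted p between 0.0142 and 0.046 in limma. Colistin replicate 2 was the highest colistin library for each of these 8. Leaving it out could therefore only raise their changes, so the shared direction of the 8 is no separate result. Without any other library no member was called.

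**Figure D5:**
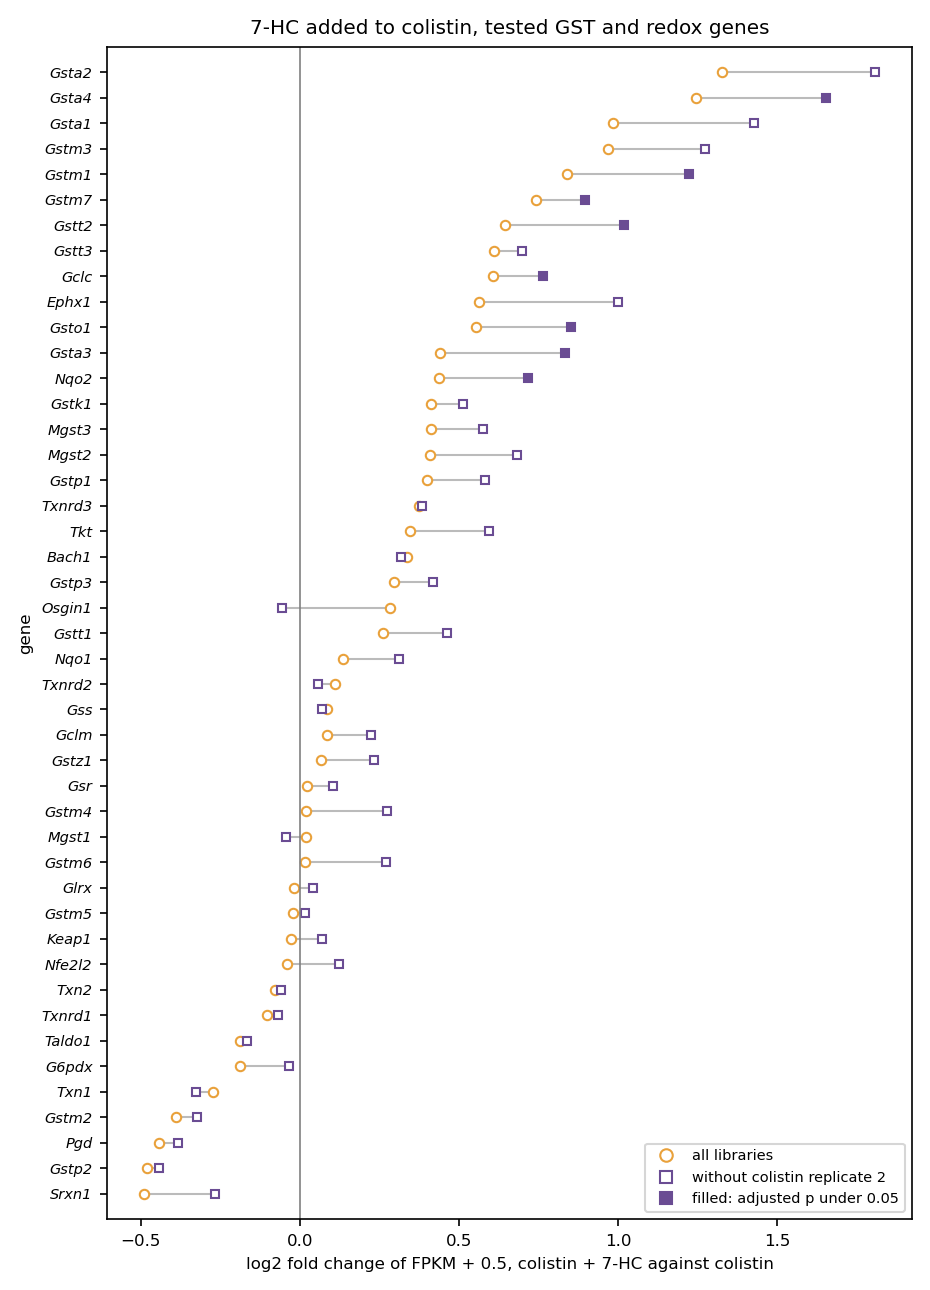
Log2 fold change of FPKM + 0.5 for colistin + 7-HC against colistin in each of the 45 tested members, with all 12 libraries (circles) and without colistin replicate 2 (squares, filled at an adjusted p under 0.05), joined by a line. No circle passed the test, and the 8 filled squares, from Nqo2 at 0.72 to Gsta4 at 1.65, all lie to the right of 0. Colistin replicate 2 was the highest colistin library for each of these 8 genes.

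7-HC alone left all members without a call in limma, beside a background of 0.167%, that is 18 genes (0.0743% higher and 0.0929% lower). At an unadjusted p under 0.05 there were 10 members, beside 9.59% of all genes. Groups did not overlap in 15 members (33.3%, beside 15.9%), 11 higher and 4 lower, beside 5.82% and 10.1% of all genes. The 4 lower ones, Gclc, Gclm, Gsr and Gss, make or recycle glutathione. Of the 11 higher ones 9 are transferases, among them Gstt1, Gstt2, Gstt3, Gsto1 and Mgst3. The lowest p belonged to Gclm (-0.52, 95% interval -0.83 to -0.21, adjusted p = 0.226), G6pdx (0.93, 95% interval 0.35 to 1.51, adjusted p = 0.253) and Gstt1 (0.68, 95% interval 0.23 to 1.12, adjusted p = 0.279).

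The interaction asks whether 7-HC changed the members differently with and without colistin. No member was called, beside a background of 0.297%, that is 32 genes (0.158% higher and 0.139% lower), and 6 had an unadjusted p under 0.05, beside 11.5% of all genes. The lowest p belonged to Gclc (1.15, 95% interval 0.63 to 1.67, adjusted p = 0.0864), Txnrd3 (0.72, 95% interval 0.29 to 1.16, adjusted p = 0.185) and Gclm (0.61, 95% interval 0.17 to 1.05, adjusted p = 0.264). Without colistin replicate 2 Gclc was called, at 1.31 (adjusted p = 0.0206), 1 member beside a background of 1.24% (0.938% higher). In the pathway lists outside the members, no gene was called for 7-HC added to colistin, for 7-HC alone or for the interaction.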

How the data were processed

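RNA from 12 libraries labelled kidney, 3 mice in each of 4 groups, was sequenced on the BGISEQ-500 platform. After filtering with SOAPnuke, the authors mapped reads to GRCm38.p6 using HISAT2 2.0.4 and to coding genes using Bowtie2 2.2.5, and RSEM 1.2.12 gave gene levels. DESeq2 1.4.5 served for their comparisons, which are not used here. No unit is named in the deposited table. Since the values are fractional and library sums differ, they were taken as FPKM computed by the authors and used with no further scaling. Counts and read depth are unknown, so no counting interval or floor was given. What the blank value of 5161 genes stands for is not stated.

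A minimum of 1 FPKM in 3 libraries left 10764 genes, which were compared as log2(FPKM + 0.5) in limma 3.58.1 (R 4.3.3) with a mean-variance trend, a term per group and all 12 libraries in 1 fit. The pseudocount makes changes of low genes smaller. P-values were adjusted by Benjamini and Hochberg over all tested genes of each of 6 comparisons, and a gene was called at an adjusted p under 0.05. Members, pathway and marker lists were chosen with earlier results of these data known. Values per library were given for the regulators, the 8 largest rises and 8 largest falls with colistin, the 3 lowest p in each comparison without calls, and the most abundant gene of each transferase class, and from each pathway list the 2 largest rises and falls. A few other members are given by range or per library because a sentence turns on them. No 2 libraries were identical. Alternatives were 2 other filters, pseudocounts of 0.1 and 1, scaling by median ratios or to equal sums, only the groups compared, a replicate block, no trend, the thresholds of the study (fold change of 2, adjusted p of 0.001) and each library left out. Summing near-identical genes was added after the data were seen. Promoter windows and gene positions are from RefSeq (GRCm38.p6), with no window for Gclc, Gsr, Gsta4 and Gstt2. The coding sequences compared are from GENCODE, the longest of each gene. Python 3.11.15 with matplotlib 3.10.9 drew the figures.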

Additional observations from a re-analysis of the deposited data

Results flagged for a closer look

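Gclc, the catalytic subunit of glutamate-cysteine ligase, was lower with 7-HC alone and higher with 7-HC added to colistin. Neither change was called in limma (adjusted p = 0.212 for the second). The gene was picked because its groups did not overlap, so the lack of overlap is no separate result. Of all tested genes 10.1% were lower without overlap in the first comparison and 9.91% higher in the second. The share that did both was not counted. All 3 libraries of 7-HC were below all 3 of control, and all 3 of colistin + 7-HC were above all 3 of colistin. The interaction was 1.15 log2 units, which did not pass the test in limma (adjusted p = 0.0864). It ranged from 0.969 to 1.31 with 1 library left out, with adjusted p from 0.0206 to 0.212, and passed without colistin replicate 2.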

How the results depend on the processing

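For colistin against control, 24 of 29 called members kept the call without each library in turn, and 23 under all settings except the thresholds of the study, which left 10 calls, beside 10 for colistin + 7-HC against 7-HC and 3 for colistin + 7-HC against control. Leaving out 1 library gave 25 to 32, 21 to 29 and 19 to 28 calls in these comparisons. It gave 0 to 8 for colistin + 7-HC against colistin (8 without colistin replicate 2), 0 to 1 for the interaction and 0 for 7-HC against control. The 5 members lost were Ephx1, Gclc, Gstm6, Gstt2 and Txn2; Gsta3 was lost with only the groups compared (adjusted p = 0.0544). The cause was not tested. Nfe2l2 in colistin + 7-HC against colistin turned from -0.04 to 0.125 without colistin replicate 2 and to 0.0943 without colistin + 7-HC replicate 2 (range with 1 library left out -0.177 to 0.125). Of 18 same-numbered pairs of libraries 2 correlated over 0.1 (range -0.187 to 0.107). This gave no sign that numbers pair the mice, but with 3 libraries per group it cannot exclude a pairing. The replicate block gave 29, 24 and 24 calls in the first 3 comparisons and 0 in the others. Read depth is unknown, so the limit it sets on low genes cannot be given.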
